A study of Mus musculus with 8 samples.

Results

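The small leucine-rich proteoglycans (SLRPs) were described here in intervertebral discs of mice with proteoglycan-induced spondylitis, an autoimmune inflammation of the spine, and of naive mice. The members were the genes Dcn, Bgn, Aspn, Fmod, Lum, Prelp, Omd, Kera, Epyc and Ogn. A probe set, the group of probes that an Affymetrix mouse genome array carries for a transcript, was taken as a member's when the platform annotation named that gene and no other. This gave 21 probe sets for all 10 genes, out of 45037 probe sets other than controls, and 10 of the 18193 genes measured.

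RNA came from 8 samples of female BALB/c mice, 3 naive and 5 immunized, and each sample held 6 lumbar discs (L1 to L6) pooled. The immunized mice received cartilage proteoglycan with 100 µg of protein, together with 2 mg of the adjuvant dimethyldioctadecyl-ammonium bromide (DDA), on days 0, 21 and 42. The naive mice were matched to them for age. The sample titles call the replicates biological, but the sources used here do not give the number of mice behind each. For naive replicate 3 and for immunized replicate 1 the description holds 2 sample numbers joined together. The p-values measure the spread between these samples only.

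SLRPs are secreted proteins whose core is built of leucine-rich repeats and which bind the surface of collagen fibrils. They steer how fibrils assemble and how thick they grow, and several carry chondroitin, dermatan or keratan sulfate chains. In the disc they lie in the collagen-rich annulus fibrosus and in the cartilage next to it. Some also bind TGF-beta, and biglycan or decorin freed from the matrix can act on Toll-like receptors of immune cells. By sequence they fall into classes: Dcn, Bgn and Aspn form class I, Fmod, Lum, Prelp, Omd and Kera class II, and Epyc and Ogn class III.

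Most of the genes lie in clusters on the chromosomes. In the RefSeq annotation of GRCm38.p6, Prelp and Fmod are adjacent protein-coding genes on chromosome 1, with Optc, another SLRP gene, on the far side of Prelp. Dcn, Lum, Kera and Epyc follow each other on chromosome 10, and Ecm2, Aspn, Omd and Ogn on chromosome 13. Bgn lies alone among them on chromosome X. RefSeq promoters of this build were matched by symbol for 8 of the 10 genes, with 9 start sites because Epyc has 2. Those of Prelp, Fmod and Aspn are shown as the 250 bases before the start site, the first pair because these neighbours had the lowest differences of class II, and Aspn because its difference had the opposite sign. Prelp lies at chr1:133921402-133921651 (minus strand), Fmod at chr1:134037004-134037253 (plus strand) and Aspn at chr13:49544193-49544442 (plus strand). Each runs 5′ to 3′ on the gene's own strand, with capitals where a searched motif matched.
Prelp promoter: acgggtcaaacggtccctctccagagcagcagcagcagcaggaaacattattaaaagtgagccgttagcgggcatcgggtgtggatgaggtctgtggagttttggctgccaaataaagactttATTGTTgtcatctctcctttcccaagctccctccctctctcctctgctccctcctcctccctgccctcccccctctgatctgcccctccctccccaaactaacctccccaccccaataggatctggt
Fmod promoter: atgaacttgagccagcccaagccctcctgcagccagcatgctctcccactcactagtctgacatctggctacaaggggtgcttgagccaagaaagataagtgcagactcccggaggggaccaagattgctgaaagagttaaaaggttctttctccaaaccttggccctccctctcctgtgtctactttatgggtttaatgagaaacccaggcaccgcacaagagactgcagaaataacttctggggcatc
Aspn promoter: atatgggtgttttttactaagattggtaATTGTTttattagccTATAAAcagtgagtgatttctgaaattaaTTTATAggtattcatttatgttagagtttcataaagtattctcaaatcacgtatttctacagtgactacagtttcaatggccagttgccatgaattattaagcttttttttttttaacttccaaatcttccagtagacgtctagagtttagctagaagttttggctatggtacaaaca

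Both strands of the full windows, 250 bases before to 50 after the start, were searched for 4 motifs. The core bound by SOX factors was spelled AACAAT. The TATA-type motif was spelled TATAAA. The motif of Sp1, the GC box, was spelled GGGCGG. The AP-1 site was spelled TGANTCA, where N is any base. Matches of different motifs did not overlap in the member promoters. The SOX core was present in 6 of the 9 member promoters, those of Prelp, Aspn, Kera, Ogn and both of Epyc, against 10.7% of all 32851 promoters. In Prelp it lay at position -127 and in Aspn at -222, counted from the start site. TATAAA was found in 2 of the 9, Aspn and Ogn, against 13.6% of all promoters. In Aspn it matched at -207 and -178. The GC box was found in 1, Bgn, against 35.7% of all, and the AP-1 letters in none of the 9 against 7.81% of all. No searched motif matched the Fmod window. The member promoters ranged in GC content from 31.0 to 63.7%, beside a median of 52.7% for all promoters, and the part of base content in these shares was not tested. A match is a run of letters and not a site shown to be used.

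The values are log2 signals, each given as the difference from that probe set's median over the 8 arrays, so 0 is the middle of the samples and levels of different genes cannot be compared. A gene's value is the mean of its probe sets. Differences are immunized minus naive with the standard error (SE) from limma fitted on all genes, and a gene was called where the Benjamini-Hochberg adjusted p was under 0.05. By the precision to which the numbers were stored, all 21 member probe sets had a signal of 8 or more on the log2 scale on their lowest array, a class that held 31.9% of probe sets. In the bulk RNA used here, fewer cells of a type and less RNA per cell cannot be told apart.

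Across the family, Prelp fell and no other member passed the test in either direction. Of all genes, 9.14% were called, 4.68% as lower and 4.46% as higher in the immunized discs, so 1 of 10 members is near the share of all genes. Of 1663 genes called in all, 851 were lower, and under quantile normalization 369 of 910 were. The differences of 7 members were negative and of 3 positive, with a median of -0.12, beside a median of -0.04 and 56.1% negative over all genes. At an unadjusted p under 0.05, 2 members were lower (Prelp and Fmod) and 1 was higher (Lum), where 18.2% and 12.9% of all genes were. All immunized samples lay below all naive samples for Prelp and Fmod, as they did for 14.0% of all genes. They lay above for Lum, as for 9.39% of all genes.

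**Figure D1:**
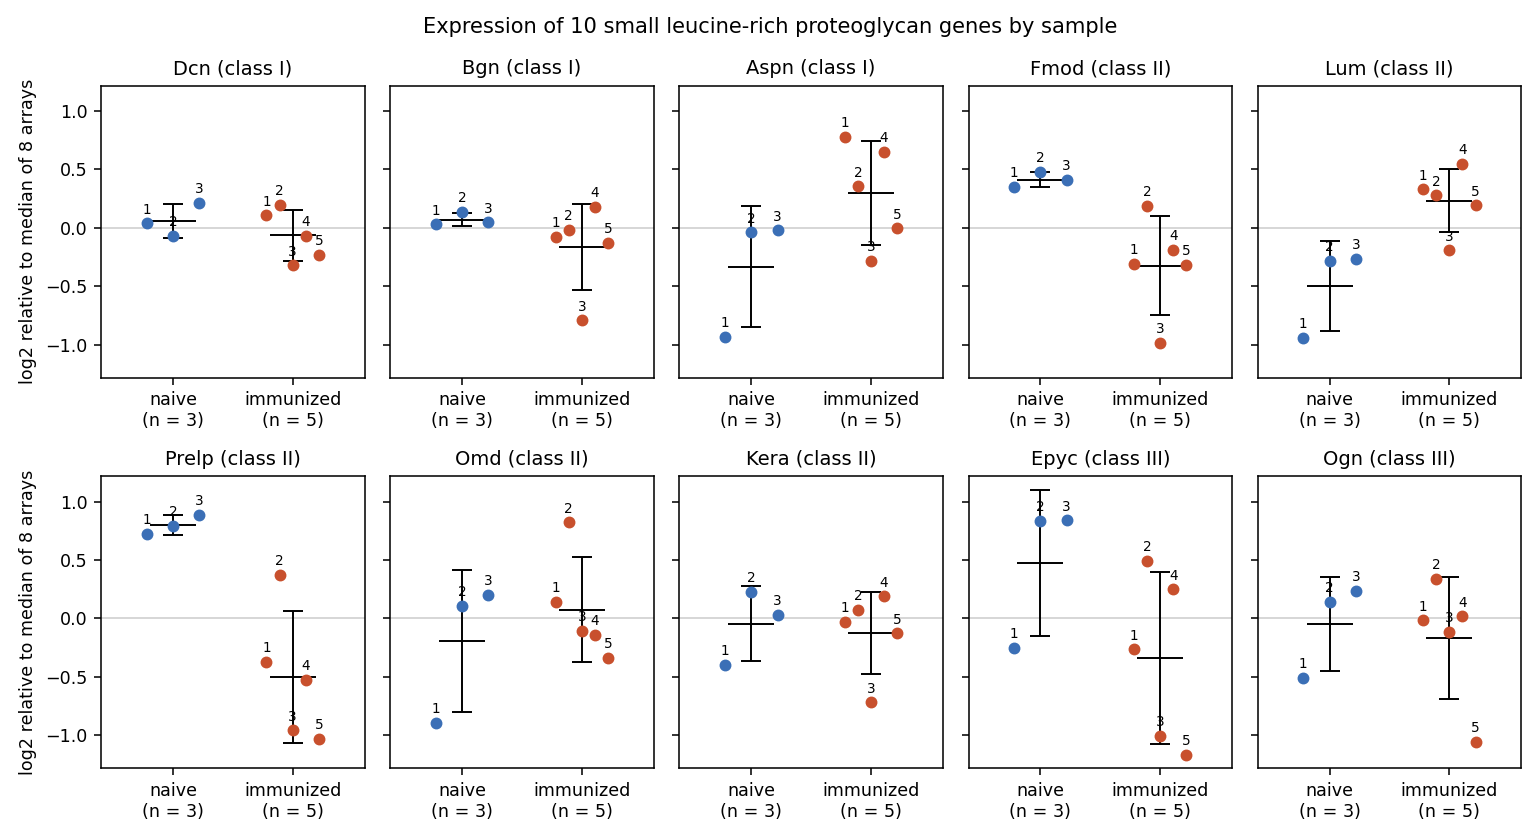
Each panel plots 1 gene's log2 signal relative to its median over the 8 arrays (vertical axis) for the 3 naive and 5 immunized samples. Points are samples, labelled by replicate, dashes are group means and capped bars are the group SD. Prelp and Fmod show no overlap with the naive samples higher, Lum shows no overlap with the naive samples lower, and the other panels overlap.

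Prelp encodes a class II SLRP without long sugar chains, whose basic amino end binds heparan sulfate while its repeats bind collagen. It stood at 0.72, 0.79 and 0.89 in naive replicates 1, 2 and 3, and at -0.37, 0.37, -0.96, -0.52 and -1.03 in immunized replicates 1 to 5. The naive samples lay close together and the immunized ones were spread widely, with replicate 2 nearest to the naive samples. The group means were 0.80 ± 0.08 (SD, n = 3) and -0.50 ± 0.56 (SD, n = 5). The difference of -1.30 ± 0.28 (SE; 95% interval -1.94 to -0.66) is 2.47-fold lower in immunized discs, with an adjusted p of 0.0311. Both probe sets of Prelp were called, at -1.44 (adjusted p = 0.039) and -1.16 (adjusted p = 0.0354). They were the only called ones among the 21 member probe sets, where 2.89% of all probe sets were called as lower. The call needed nearly every sample: with any 1 sample left out except immunized replicate 2, the adjusted p rose to between 0.0539 and 0.0934. Without immunized replicate 2 it was 0.00233. The difference itself lay between -1.52 and -1.01 under the 18 alternative settings tried.

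Fmod, the neighbour of Prelp, encodes fibromodulin, a keratan sulfate SLRP that guides collagen fibril growth in tendon, cartilage and annulus. Its values were 0.35, 0.48 and 0.41 in naive replicates 1 to 3 and -0.31, 0.19, -0.98, -0.19 and -0.32 in immunized replicates 1 to 5. The groups did not overlap, and replicate 3 was the lowest and replicate 2 the highest of the immunized samples. The difference was -0.74 ± 0.22 (SE; 95% interval -1.23 to -0.24), and it missed the threshold with an adjusted p of 0.0634. Its 6 probe sets ranged from -0.94 to -0.55, and none was called. 5 of these carry the suffix _x_at, given by Affymetrix to sets with probes that may match other transcripts, and the largest difference came from the only one without it. Fmod passed the test when immunized replicate 2 was left out, with an adjusted p of 0.0192.

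Lum encodes lumican, a keratan sulfate SLRP of cornea, tendon and skin that binds the same stretch of collagen as fibromodulin. It was measured by 1 probe set, at -0.94, -0.28 and -0.27 in naive replicates 1 to 3 and 0.33, 0.28, -0.19, 0.55 and 0.19 in immunized replicates 1 to 5. Every immunized sample lay above every naive one, although immunized replicate 3 exceeded the closest naive sample by little. The difference of 0.73 ± 0.20 (SE; 95% interval 0.28 to 1.17) had an adjusted p of 0.0519 and missed the threshold. Naive replicate 1 was far below the other naive samples, and without it the difference was 0.51 (adjusted p = 0.13). Without immunized replicate 3, Lum passed with an adjusted p of 0.0473.

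The remaining class II members did not differ beyond their spread. Omd encodes osteomodulin, a keratan sulfate SLRP of bone. It lay at -0.89, 0.11 and 0.20 in the naive replicates and between -0.34 and 0.82 in the immunized ones, a difference of 0.27 ± 0.31 (SE, adjusted p = 0.584). This positive sign rested on naive replicate 1, since the difference was -0.08 without it. Kera encodes keratocan, best known from the cornea. Its naive values were -0.40, 0.23 and 0.03 and its immunized ones ran from -0.72 to 0.19, a difference of -0.08 ± 0.21 (SE, adjusted p = 0.836). The 95% interval for Kera, -0.56 to 0.41, still allows a moderate change either way.

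In class I no gene passed, with negative differences for Dcn and Bgn and a positive one for Aspn. Dcn encodes decorin, the most widespread SLRP of connective tissue, which carries 1 chondroitin or dermatan sulfate chain. Its values were 0.04, -0.07 and 0.21 in naive and 0.11, 0.20, -0.32, -0.07 and -0.23 in immunized replicates, so the groups overlapped. The difference of -0.12 ± 0.13 (SE, adjusted p = 0.557) has a 95% interval of -0.42 to 0.18, the narrowest of the 10 members. Bgn encodes biglycan, which carries a pair of such chains. It stood at 0.03, 0.14 and 0.05 in naive and -0.08, -0.02, -0.79, 0.18 and -0.13 in immunized replicates. Immunized replicate 3 was far below the rest, and the difference was -0.24 ± 0.19 (SE, adjusted p = 0.429), or -0.08 without that sample. With all samples, the 95% interval for Bgn was -0.67 to 0.20, which still allows a moderate drop.

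Aspn encodes asporin, a class I SLRP with an aspartate-rich stretch and no sugar chain, known to bind TGF-beta1. It stood at -0.93, -0.04 and -0.02 in naive and 0.78, 0.35, -0.28, 0.65 and -0.01 in immunized replicates. The groups overlapped through immunized replicate 3, and naive replicate 1 was the lowest sample. The difference was 0.63 ± 0.29 (SE; 95% interval -0.02 to 1.28, adjusted p = 0.173), and 0.33 without naive replicate 1. Its 2 probe sets gave 0.77 and 0.49.

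Both class III members had negative differences, neither of which passed. Epyc encodes epiphycan, an SLRP of epiphyseal and other cartilage. It stood at -0.25, 0.83 and 0.84 in naive and -0.26, 0.49, -1.01, 0.25 and -1.17 in immunized replicates. Naive replicate 1 lay among the immunized samples, and the other naive samples lay above all of them. The difference of -0.82 had an SE of 0.43 and a 95% interval of -1.78 to 0.15 (adjusted p = 0.224), the widest interval of the family. Ogn encodes osteoglycin, also called mimecan. It ran from -0.51 to 0.23 in naive and from -1.06 to 0.34 in immunized samples, a difference of -0.12 ± 0.30 (SE, adjusted p = 0.812). Its sign turned to 0.10 when immunized replicate 5, the lowest sample, was left out.

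**Figure D2:**
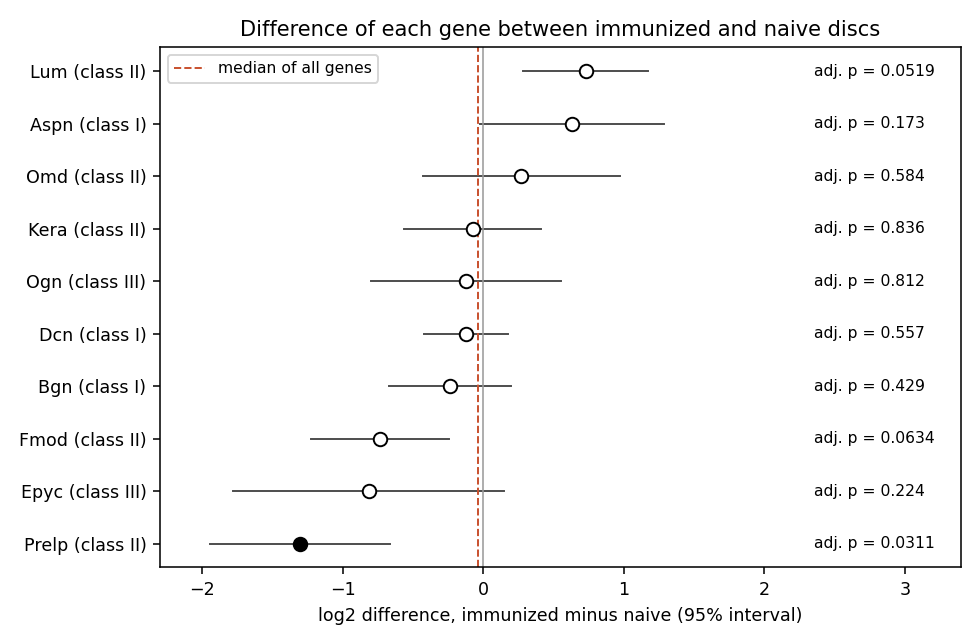
Points are the log2 difference of each gene, immunized minus naive (horizontal axis), with 95% intervals; filled points passed the test, the dashed line is the median of all genes, and the adjusted p stands at the right. The order runs from Lum at 0.73 to Prelp at -1.30, with only Prelp filled.

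**Figure D3:**
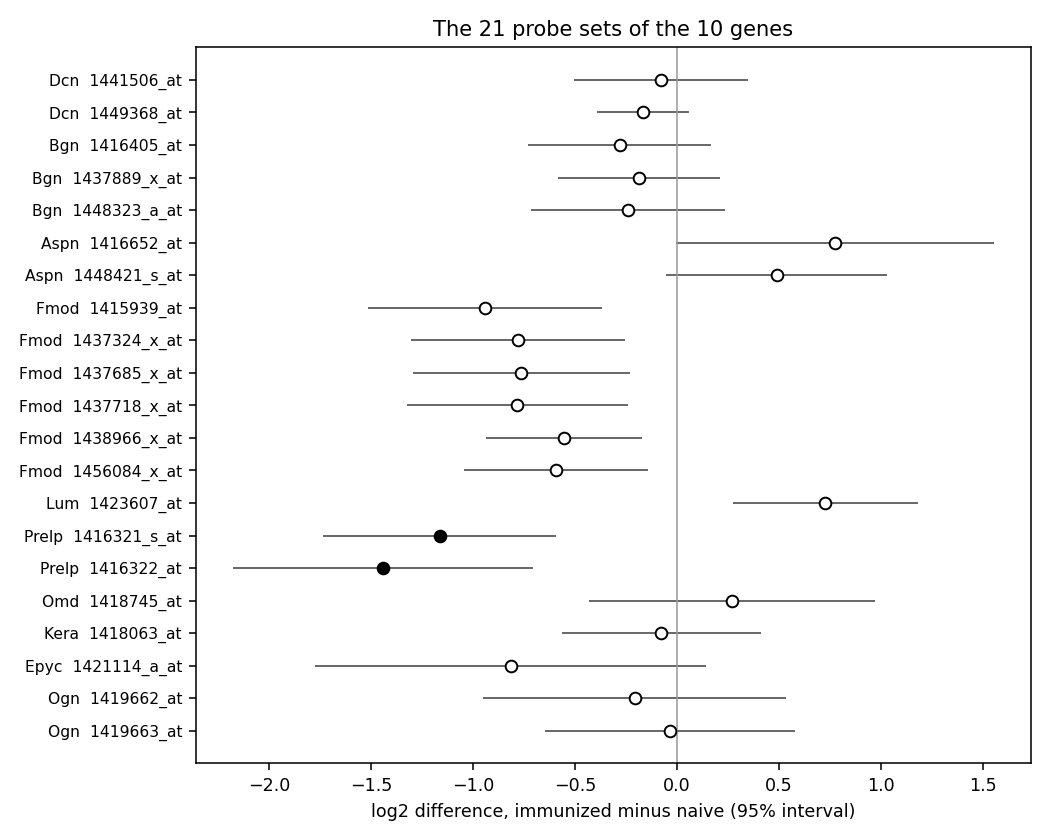
Each line is 1 of the 21 probe sets, with its log2 difference, immunized minus naive (horizontal axis), and 95% interval; filled points passed the test over all probe sets. Probe sets of 1 gene lie on the same side of 0, and the filled ones are both of Prelp.

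Probe sets of a gene gave the same sign in all 6 genes that had more than 1. The 3 probe sets of Bgn ranged from -0.28 to -0.19, the 2 of Dcn from -0.17 to -0.08 and the 2 of Ogn from -0.21 to -0.04. They are not independent measurements, since they read the same RNA on the same array.

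The samples of a group came in a similar order for many members. Naive replicate 1 was the lowest naive sample for 9 of the 10 genes, all but Dcn. Among the immunized samples the lowest was replicate 3 for 6 genes (Dcn, Bgn, Aspn, Fmod, Lum and Kera) and replicate 5 for the other 4. The highest immunized sample was replicate 2 for 6 genes, replicate 4 for Bgn, Lum and Kera, and replicate 1 for Aspn.

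To see whether members differed from each other in response, the difference between each pair of genes was taken within each sample and compared between groups by a two-sided exact permutation test. Over all 45 pairs, 26 separated the groups fully and reached the smallest p that 56 splits of 8 samples allow, 0.0357. How often pairs of other genes on the array separate the groups was not determined, so this count has no background share. Adjusted over the 45 pairs this was 0.0618, so no pair passed. At this smallest p, a pair could pass only if more of the 45 pairs had reached it too, whatever its own values. The widest gap was between Lum and Prelp. Lum minus Prelp was -1.30 ± 0.32 (SD, n = 3) in naive and 0.73 ± 0.51 (SD, n = 5) in immunized samples, a change of 2.03. Aspn minus Prelp changed by 1.93 and Lum minus Epyc by 1.54.

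Lumican and fibromodulin are known to compete for collagen. Fmod minus Lum was 0.91 ± 0.33 (SD, n = 3) in naive and -0.55 ± 0.28 (SD, n = 5) in immunized samples, a change of -1.46 with no overlap between the groups, which did not pass after adjustment. For the adjacent genes Fmod and Prelp, Fmod minus Prelp changed by 0.57, which did not pass either (exact permutation p = 0.0357, adjusted 0.0618). Within the chromosome 10 cluster, Lum minus Kera went from -0.45 ± 0.13 (SD, n = 3) to 0.35 ± 0.12 (SD, n = 5), a change of 0.80 between neighbouring genes. The groups overlapped for Prelp minus Epyc (change -0.49, exact permutation p = 0.25, adjusted 0.341), and for Aspn minus Lum (change -0.10, exact permutation p = 0.607, adjusted 0.683). These pairs share the same 8 samples and many share a gene, so their results are not independent.

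For each of Prelp, Fmod and Dcn the 3 genes with the most similar pattern over the 8 samples were found by Pearson r, as a description. Those of Prelp were Palld (r = 0.997), Arhgef10 (r = 0.995) and Atp9a (r = 0.995), with differences of -0.68, -0.72 and -0.68. Those of Fmod were Slc2a10 (r = 0.993), Htra3 (r = 0.99) and Scara3 (r = 0.989). Those of Dcn were Styxl1 (r = 0.967), Lgr4 (r = 0.948) and Adam23 (r = 0.947). The values share arrays and sample makeup, and the 3 r values given for each gene are the highest out of 18193 genes.

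Other genes of the SLRP kind were read from lists of genes related to the family. Of 6 measured SLRP-type genes outside the 10 members, Chadl and Chad fell and 4 did not pass, where 4.68% of all genes were called as lower. Chadl, a chondroadherin-like collagen-binding protein, stood at 0.85, 0.63 and 0.84 in naive and -0.62, 0.30, -1.12, -0.30 and -0.88 in immunized replicates. Its difference was -1.30 ± 0.28 (SE, adjusted p = 0.0306). Chad encodes chondroadherin, a cartilage protein that binds type II collagen, and differed by -0.51 ± 0.14 (SE, adjusted p = 0.0493). With 1 of the 8 samples left out in turn, Chad missed the threshold in 7 fits and Chadl in 5. Only 1 gene of this list passed under quantile normalization, and 1 with arrays centred on their median. Optc, beside Prelp on chromosome 1, differed by -0.11 ± 0.11 and did not pass, and Podn differed by -0.19 ± 0.11.

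The enzymes that build the sugar chains were read as 2 lists. Of 20 genes of chondroitin and dermatan sulfate synthesis, 1 fell and 0 rose, near the 4.68% of all genes called as lower. The median was -0.18, and 17 of the 20 differences were negative. At an unadjusted limma p under 0.05, 8 were lower and 1 higher, where 18.2% and 12.9% of all genes were. The 1 called gene was Chst12, a chondroitin 4-sulfotransferase, at -0.57 ± 0.10 (SE, adjusted p = 0.0209). Chsy1, a chondroitin synthase, had the opposite sign at 0.36 ± 0.12 and did not pass (adjusted p = 0.0888). Of 10 genes of keratan sulfate synthesis, the chain borne by Fmod, Lum, Kera and Omd, 2 fell and 0 rose, with a median of 0.00. Chst5, a sulfotransferase that adds sulfate to N-acetylglucosamine, stood at 1.02, 0.92 and 1.20 in naive and -0.58, 0.58, -0.70, -1.14 and -1.73 in immunized replicates. Its difference was -1.76 with an SE of 0.42 (adjusted p = 0.0396). The sialyltransferase St3gal3 differed by -0.35 ± 0.09 (SE, adjusted p = 0.0419). Chst1, the sulfotransferase that adds sulfate to galactose in keratan sulfate, was at -0.88 ± 0.23 and missed the threshold (adjusted p = 0.0505). B3gnt2, which extends the chain, was at 0.35 ± 0.14 and did not pass (adjusted p = 0.122). With array weights, where 5900 of all 18193 genes were called, 2 genes of each list were called as higher, and 8 and 3 as lower. Under quantile normalization 0 keratan sulfate genes passed. The same held with any 1 sample left out except immunized replicate 2.

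Collagens were read as 2 lists. None of 11 fibrous collagen genes that SLRPs coat passed by limma, and 1, Col12a1 at -0.37 ± 0.16, was lower at an unadjusted p under 0.05. The median of the list was -0.22. Of 8 cartilage collagen genes 4 fell, all 8 had negative differences with an unadjusted p under 0.05, and the median was -1.03. Of all genes, 4.68% were called as lower and 18.2% were lower at an unadjusted limma p under 0.05. The 4 were Col9a1 (-1.75 ± 0.44), Col11a2 (-1.26 ± 0.27), Col27a1 (-1.02 ± 0.24) and Col9a3 (-0.94 ± 0.22), with adjusted p from 0.0306 to 0.0428. Under quantile normalization none of the 4 passed, with adjusted p from 0.0557 to 0.0862, although all 8 stayed lower at an unadjusted p under 0.05. Col9 and Col11 chains sit on and within the type II collagen fibrils of cartilage. Of 8 large aggregating proteoglycans and link proteins none passed by limma. 3 were lower at an unadjusted p under 0.05, among them Acan, the gene for aggrecan, at -0.95 ± 0.30 (adjusted p = 0.0781).

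Proteases and receptors of SLRPs moved the other way where they passed. Of 15 proteases that cut SLRPs or their propeptides, 3 rose and 0 fell, where 4.46% of all genes were called as higher. The list median was 0.37. At an unadjusted limma p under 0.05, 6 were higher and 2 lower. Mmp3, stromelysin-1, stood at -2.37, -2.09 and -1.80 in naive and 2.19, 1.57, -0.21, 2.15 and 0.21 in immunized replicates, a difference of 3.27 ± 0.56 (SE, adjusted p = 0.0195). Mmp12, macrophage elastase, differed by 3.29 ± 0.74 (SE, adjusted p = 0.0345) and Mmp8, neutrophil collagenase, by 1.47 ± 0.35 (SE, adjusted p = 0.0376). Gzmb at 0.51 ± 0.14 and Htra1 at -0.66 ± 0.24 did not pass. Bmp1, which trims the propeptide of biglycan, was at -0.44 ± 0.17 and did not pass either.

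Of 12 receptors of soluble SLRPs, 4 rose and 0 fell, with a median of 0.18, where 4.46% of all genes were called as higher. Tlr2, which with Tlr4 senses free biglycan, stood at -0.82, -0.68 and -0.80 in naive and 0.44, -0.07, 0.07, 0.40 and 0.16 in immunized replicates. Its difference was 0.97 ± 0.12 (SE, adjusted p = 0.00976). Tlr4 differed by 0.71 ± 0.16 (SE, adjusted p = 0.036), their co-receptor Cd14 by 2.06 ± 0.46 (SE, adjusted p = 0.033) and Cd44, the hyaluronan receptor, by 0.72 ± 0.13 (SE, adjusted p = 0.0214). Of 10 genes of TGF-beta ligands, receptors and latency proteins 1 rose and 1 fell. The receptor Tgfbr1 rose by 0.85 ± 0.19 (SE, adjusted p = 0.0353) and Ltbp4, a latent TGF-beta binding protein, differed by -1.08 ± 0.21 (SE, adjusted p = 0.0254). The ligand Tgfb3 was at -0.83 ± 0.24 and did not pass.

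These calls rested on the full set of samples. Of the 100 distinct genes in the lists just described, 8 rose and 10 fell. Without naive replicate 2 none passed, with 1 left without naive replicate 1 and 2 without naive replicate 3. Without immunized replicates 1 to 5 in turn, the counts of higher and lower genes were 1 and 0, 10 and 21, 6 and 7, 5 and 4, and 3 and 1. Under quantile normalization they were 5 and 3, with array weights 18 and 30, and 0 and 0 without both samples whose numbers are joined, where 11 were higher and 18 lower at an unadjusted limma p under 0.05.

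**Figure D4:**
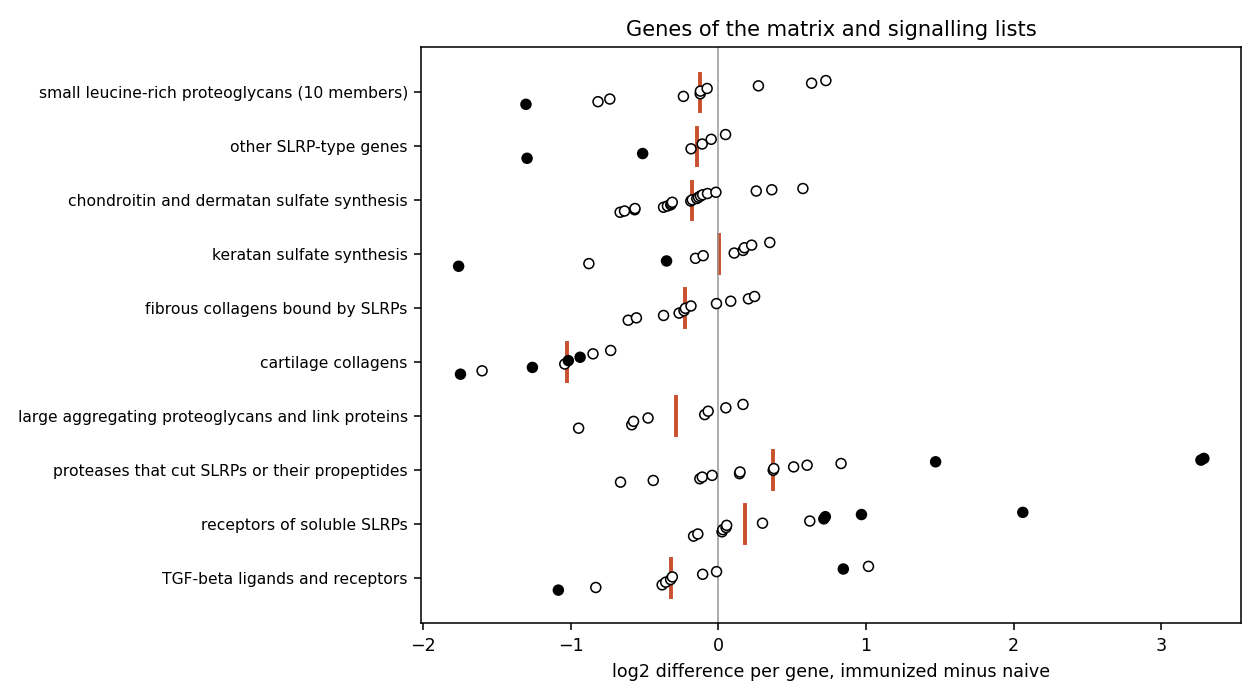
Each point is 1 gene's log2 difference, immunized minus naive (horizontal axis), in the list named at the left; filled points passed the test over all genes and the upright bars are list medians. The 8 cartilage collagens all lie below 0 with a median of -1.03, and the called proteases and receptors all lie above 0.

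Markers of cell types were read beside these results. The labelled tissue was checked on marker genes: 8 of 10 chondrocyte markers, 5 of 7 of the nucleus pulposus and notochord, and 8 of 8 fibroblast markers had a probe set in the high signal class. All 7 skeletal muscle markers were in that class too, and 7 of 8 neutrophil and 3 of 4 erythroid markers, and no measured marker had all its probe sets below 4. The mean of the chondrocyte markers ran from 0.27 to 0.48 in naive and from -0.72 to 0.34 in immunized samples, with immunized replicate 2 the highest and replicates 5 and 3 the lowest, as for Prelp. Of these 10 markers 1 fell, Sox9, at -0.83 ± 0.19 (SE, adjusted p = 0.0336), and all 10 were negative. The 7 nucleus pulposus and notochord markers had list means of 0.44 to 0.60 in naive and -0.92 to 0.40 in immunized samples, and 1 fell, Krt19, at -2.01 ± 0.36 (SE, adjusted p = 0.0214). The 8 fibroblast markers, which include Dcn, ran from -0.05 to -0.04 in naive and from -0.35 to 0.53 in immunized samples, and none passed. The 7 tendon and annulus markers, which include Fmod, ran from 0.00 to 0.37 and from -0.71 to 0.19, and none passed. Of 5 osteoblast markers 1 fell, Alpl, a phosphatase of mineralizing cells, at -0.68 ± 0.16 (SE, adjusted p = 0.0367), and all 5 were negative, with list means of 0.19 to 0.38 in naive and -0.50 to 0.12 in immunized samples. No measured marker of erythroid cells (4), endothelium (6), skeletal muscle (7), adipocytes (3) or Schwann cells (4) passed by limma. At an unadjusted limma p under 0.05, 1 endothelial marker was higher, and 1 muscle and 3 Schwann cell markers were lower. At that level 8 chondrocyte, 5 nucleus pulposus and notochord, 1 tendon and annulus and 2 osteoblast markers were also lower. Of all genes, 18.2% were lower and 12.9% higher at that level, and 4.68% were called as lower.

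Some markers of immune cells rose in the immunized discs, where 4.46% of all genes were called as higher. Of 7 macrophage markers 4 rose (Adgre1, Itgam, Mpeg1 and Mrc1), and the list mean ran from -0.81 to -0.46 in naive and from -0.04 to 0.61 in immunized samples. Of 8 neutrophil markers 2 rose (S100a9 and Cxcr2), with list means from -0.63 to -0.08 and from -0.11 to 0.47. Of 6 plasma cell markers 2 rose, Jchain and Xbp1, with a list median of 0.09. The differences of 3 others, Irf4, Tnfrsf17 and Sdc1, were negative and did not pass. At an unadjusted limma p under 0.05, 5 macrophage, 8 neutrophil and 3 plasma cell markers were higher and 0 were lower. Of all genes, 12.9% were higher at that level. Naive replicate 1 had the highest neutrophil and erythroid means of the naive samples, and immunized replicates 3 and 5 those of the immunized samples. These are also the samples in which most members were lowest. Without these 3 samples Prelp was at -1.01 (adjusted p = 0.108), Fmod at -0.55 (adjusted p = 0.127) and Lum at 0.66 (adjusted p = 0.0511). The part of cell makeup in the members' differences was not tested.

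**Figure D5:**
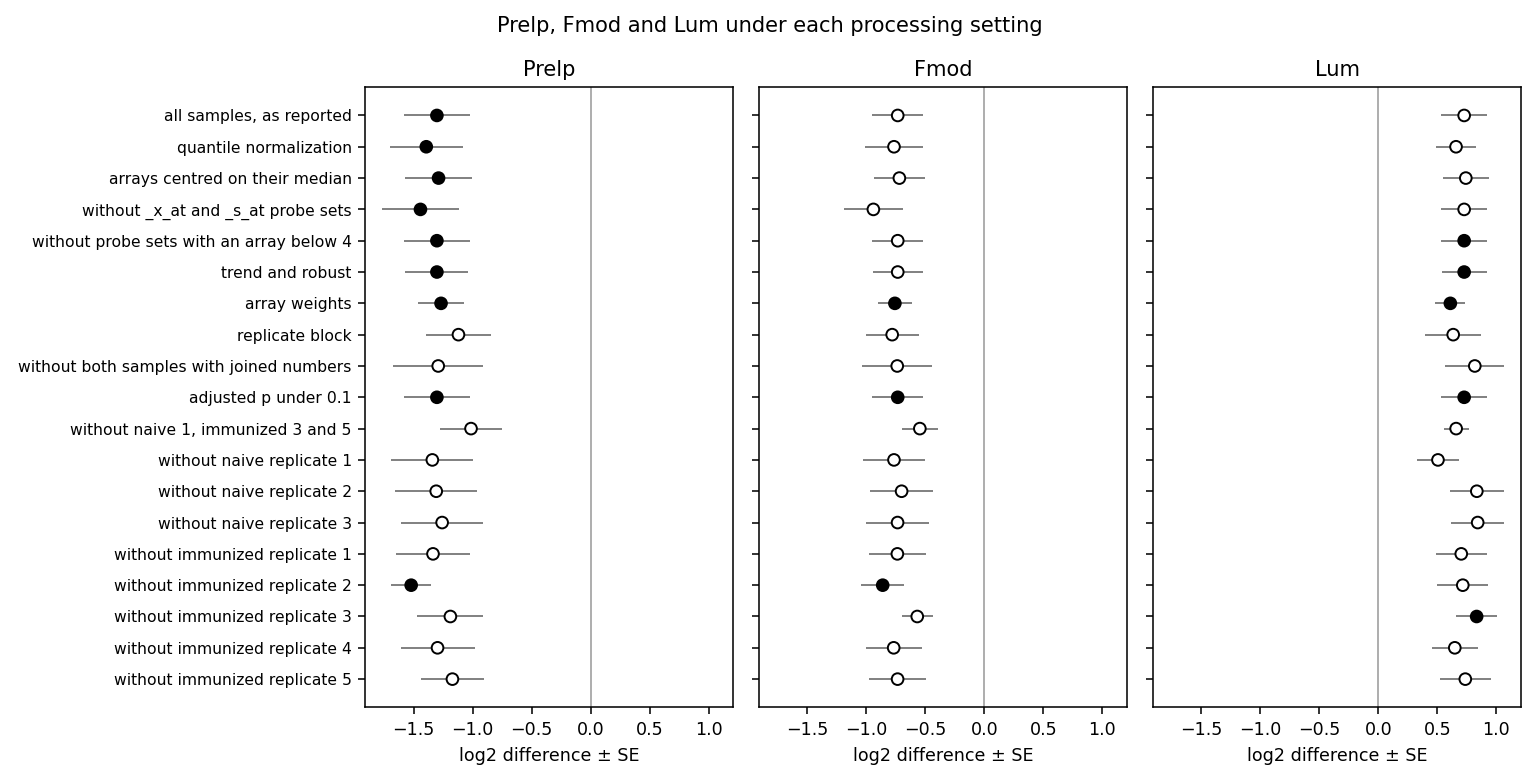
The log2 difference, immunized minus naive, with its SE (horizontal axis) for Prelp, Fmod and Lum under each processing setting (rows); filled points passed the setting's threshold. Prelp and Fmod lie below 0 and Lum above 0 in every row, while which points are filled changes with the setting.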

How the data were processed

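Labelled RNA from the 8 samples (2 to 5 µg of total RNA each) was hybridized to Affymetrix mouse arrays. The authors deposited log2 values made with RMA, per the submitters' processing notes. Each probe set's median over the arrays is 0 to within 5e-07, so the deposited log2 values were also centred by probe set, a step the labels do not record; it leaves differences between groups unchanged and removes levels. Array medians ran from -0.012 to 0.016, and precision is limited by there being only 8 arrays.

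Of 45101 probe sets, 64 were controls, 34945 named 1 gene, 932 several and 9160 none in the platform annotation. limma 3.58.1 (R 4.3.3; lmFit, eBayes, two-sided, Benjamini-Hochberg, threshold 0.05) was fitted to gene means and to probe sets. On simulated data for this comparison (18193 genes, 200 changed), 85% of genes with a log2 change of 1 and 98% with a change of 2 were recovered. Of 189 calls there, 6 were false. The simulated noise was normal, independent between genes and of equal spread in both groups. In the data, Prelp had an SD of 0.08 in naive and 0.56 in immunized samples. Pairs of members were tested in Python 3.11.15 (scipy 1.17.1). Besides the members, the text names list genes that passed, up to 3 more per list by the size of limma's statistic, and the 3 genes most like Prelp, Dcn and Fmod. The members and lists were chosen with earlier results of these data known. Alternatives covered normalization, probe sets, variance model, array weights, replicate block, threshold and samples left out. No batch was named in the labels.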

Additional observations from a re-analysis of the deposited data

How the results depend on the processing

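The count of SLRP genes that passed was 1, and stayed 1 under quantile normalization, median-centred arrays and without _x_at and _s_at probe sets. It was 2 (Prelp and Lum) without probe sets whose lowest array was below 4 and with a trended, robust variance model, 3 at an adjusted p under 0.1 and 4 with array weights (Prelp, Fmod, Lum and Epyc), where 5900 of all genes were called. It was 0 without both samples with joined numbers and 0 without naive replicate 1 and immunized replicates 3 and 5. These 3 samples were chosen after seeing the data, for the highest neutrophil and erythroid marker means of their groups. Leaving out 1 sample gave 0 to 2 genes. Of the 21 probe sets 2 passed, 10 with array weights and 9 at an adjusted p under 0.1. That count was 0 without the joined samples, 0 without those 3 samples and 0 to 8 with 1 sample left out. With the replicate number as a block, 0 genes and 0 probe sets passed and 7 of all genes did. None of the 100 genes in the related lists passed with the block, and before adjustment 13 of them were higher and 26 lower (limma p under 0.05). The deviations of same-numbered samples correlated at -0.047, 0.243 and -0.101, so the numbers were not taken to pair the samples. No pair of members passed under any setting run. With samples left out or with the block, the smallest p possible was above 0.05.

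Signs turned for 4 members, none of them called. Dcn turned to 0.0066 without naive replicate 1 and immunized replicates 3 and 5, and Omd to -0.079 without naive replicate 1. Kera turned to 0.06 without naive replicate 2 and 0.073 without immunized replicate 3. Ogn turned to 0.11 with the block, 0.02 without naive replicate 3 and 0.10 without immunized replicate 5. With 1 sample left out, Omd ranged from -0.079 to 0.47, Kera from -0.25 to 0.073 and Ogn from -0.35 to 0.10. Prelp stayed negative in all 18 alternatives and passed in 8. Over all genes, quantile normalization gave 910 calls with 369 lower, against 1663 with 851 lower, and leaving out 1 sample gave 21 to 3003 calls. The probe set with the largest level was not used to stand for a gene, since the centring removed levels. Low signal did not limit the members, all of whose probe sets were in the highest class.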
